A study of Mus musculus with 79 samples.

Results

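The genes described here are 10 transcripts that mark growing axons or make up the neuronal cytoskeleton: Gap43, Stmn1, Stmn2, Map1b, Tubb3, Tubb2b, Nefl, Nefm, Uchl1 and Dpysl3. They are taken by symbol from the 23361 genes of the count tables, by a rule with no threshold on a measured value, and the symbols were picked with earlier results of these data known. Their levels were compared across cell types, days and repair groups after a cross-suture repair of the mouse sciatic branches. The tibial stump received the cut end of the common peroneal nerve, on the day of the tibial cut in the immediate group and 8 weeks after it in the delayed group. Animals of the immediate group had a sham incision 8 weeks before the repair, and all animals carried a S100β-eGFP transgene, which labels Schwann cells with green fluorescent protein. There were 79 libraries from 32 animals of both sexes. Sorted macrophages numbered 9 delayed and 8 immediate libraries at day 5 and 7 and 8 at day 14. The libraries labelled Schwann cells numbered 9 and 7 at day 5 and 7 and 8 at day 14. The distal tibial stump was sampled at day 5 in 9 delayed and 7 immediate animals. Macrophages were gated on CD14, CD11b, CD16/32 and F4/80, and Schwann cells on GFP without those markers, from the tissue bridge inside a silicone conduit.

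In the adult these genes are best known from neurons. Gap43 is a membrane protein of growth cones, Stmn1 and Stmn2 are stathmins that bind free tubulin, and Map1b and Dpysl3, a collapsin response mediator, act on microtubules and actin in growing neurites. Tubb3 and Tubb2b are beta tubulins, Nefl and Nefm are the light and medium neurofilament subunits, and Uchl1 is a ubiquitin hydrolase abundant in neurons. The cell bodies of the axons in a peripheral nerve lie in the spinal cord and the dorsal root ganglia, so RNA taken from nerve comes mostly from Schwann cells, fibroblasts, vessels and immune cells. Schwann cells that lose axon contact are known to dedifferentiate and to express several genes that are otherwise neuronal, Gap43 among them. Stmn1 is also expressed by dividing cells of many types.

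Levels are given in CPM, the counts of a gene scaled to a common library total. Totals ran from 3898778 to 9212710 in the stump, from 14928748 to 28499405 in macrophages and from 11614940 to 30796825 in the Schwann cell libraries, so 3 counts stood for 0.326 to 0.769 CPM in the stump and for 0.0974 to 0.258 CPM in the sorted cells. Sorted cells were sequenced from amplified cDNA of 1000 cells, and stump RNA after rRNA depletion, so stump levels were not tested against those of sorted cells. The label of the Schwann cell fraction was checked against markers. Summed over 12 dendritic cell markers, these libraries held 24746 to 54743 CPM, against 4.34 to 2224 CPM summed over 10 Schwann cell markers. Sox10, the transcription factor that defines the lineage, lay below 5 CPM in 4 of the 9 delayed libraries of day 5, replicates 1, 3, 4 and 9. They are therefore called the GFP-sorted libraries here, and the day 5 repair comparison and the delayed comparison of days are given with and without them. In the stump, delayed replicate 7 stood apart for 4 of the 10 genes.

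In the stump 5 days after repair, 4 of the 10 transcripts were lower and 1 was higher after delayed than after immediate repair. Stmn1, Map1b and Tubb2b were 4.24- to 4.51-fold lower than after immediate repair and Uchl1 was lower still, whereas Stmn2 was 2.26-fold higher. Gap43, Tubb3 and Dpysl3 were measured but did not pass the test, and both neurofilament genes were too low to be tested. Of the 10 genes, 8 reached 5 CPM in at least 6 of the 16 libraries, and 5 of these passed an adjusted p of 0.05 in edgeR's quasi-likelihood test, 4 lower and 1 higher. Over all 12229 genes tested, 26.3% passed, 12.8% higher and 13.5% lower. Stmn2 reached the minimum through the delayed group, in which it was higher, so nothing is read from its part of the count. The median log2 fold change was -1.61 over the 8 genes and 0.02 over all genes. In a bulk tissue, fewer cells of a type and less RNA per cell cannot be told apart.

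Uchl1 moved most. It ranged from 3.22 to 29.6 CPM with a median of 8.46 in the 9 delayed stumps, and from 59.4 to 161 CPM with a median of 114 in the 7 immediate stumps. Every immediate library lay above every delayed one. The log2 fold change was -3.32 (SE 0.36, edgeR adjusted p = 8.08e-06). The exons of Uchl1 share 295 bases with an antisense transcript, Uchl1os, and 9.59% of the 85-base stretches of its transcripts also occur there, read on either strand. The paper names a directional kit for the stump libraries, which keeps the strand of a read. Its locus is chr5:66676091-66687234 on the plus strand of GRCm38, and the other positions below refer to the same assembly.

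Map1b had the highest CPM of the 10 genes in the stump. It is a long transcript, with 15846 exonic bases at chr13:99421446-99516540 on the minus strand. Delayed stumps held 147 to 361 CPM (median 203) and immediate stumps 651 to 1650 CPM (median 992). The groups did not overlap, and the log2 fold change was -2.16 (SE 0.22, edgeR adjusted p = 4.00e-06). Stmn1, at chr4:134468320-134473843 on the plus strand, was at 29.6 to 58.7 CPM (median 36.5) after delayed repair. After immediate repair it was at 107 to 250 CPM (median 153), again without overlap. Its log2 fold change was -2.17 (SE 0.17, edgeR adjusted p = 3.24e-07). Of its 85-base stretches, 14.4% are shared with the gene Gm11223, so the counting could have moved reads between them.

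Tubb2b, at chr13:34126748-34130466 on the minus strand, completed the group that fell. Its levels were 16.6 to 56.9 CPM (median 29.5) in delayed and 72.5 to 202 CPM (median 118) in immediate stumps, with no overlap. The log2 fold change was -2.08 (SE 0.25, edgeR adjusted p = 2.02e-05). Tubb2b is uncertain in one respect, since 26.3% of its 85-base stretches are found in the neighbouring paralogue Tubb2a, which itself was lower by -0.77 on the log2 scale (SE 0.16, edgeR adjusted p = 0.00210). Leaving out each library in turn, delayed replicate 7 included, kept the log2 fold changes between -3.67 and -3.19 for Uchl1, -2.26 and -2.01 for Map1b, -2.27 and -2.08 for Stmn1 and -2.24 and -1.97 for Tubb2b. Groups without overlap were found for 4 of the 8 tested genes, against 4.44% of all genes tested.

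The promoters of Uchl1, Map1b and Tubb3 are shown because the promoter table used held these 3 of the 10 genes. Uchl1 and Map1b fell without overlap, and Tubb3 varied most between delayed animals among the tested genes. The sequences come from RefSeq on GRCm38.p6 and run from 250 bases before to 50 bases after the annotated start, with the GC box (GGGCGG, read on either strand) in capitals. For the other genes no promoter is shown: Gap43, Stmn1, Stmn2, Tubb2b, Nefl, Nefm and Dpysl3.
Uchl1 promoter, chr5:66675871-66676170, plus strand: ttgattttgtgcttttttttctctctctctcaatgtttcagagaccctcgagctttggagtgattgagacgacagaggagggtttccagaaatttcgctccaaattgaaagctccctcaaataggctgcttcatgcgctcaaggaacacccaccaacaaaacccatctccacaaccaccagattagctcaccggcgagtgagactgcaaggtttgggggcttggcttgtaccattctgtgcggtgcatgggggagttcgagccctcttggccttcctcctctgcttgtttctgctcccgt
Map1b promoter, chr13:99516553-99516852, minus strand: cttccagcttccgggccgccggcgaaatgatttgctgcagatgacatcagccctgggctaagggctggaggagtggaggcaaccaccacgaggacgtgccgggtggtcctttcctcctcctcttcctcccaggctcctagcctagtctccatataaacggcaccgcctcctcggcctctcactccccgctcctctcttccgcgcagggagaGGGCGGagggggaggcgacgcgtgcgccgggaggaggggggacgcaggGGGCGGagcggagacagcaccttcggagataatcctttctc
Tubb3 promoter, chr8:123411303-123411602, plus strand: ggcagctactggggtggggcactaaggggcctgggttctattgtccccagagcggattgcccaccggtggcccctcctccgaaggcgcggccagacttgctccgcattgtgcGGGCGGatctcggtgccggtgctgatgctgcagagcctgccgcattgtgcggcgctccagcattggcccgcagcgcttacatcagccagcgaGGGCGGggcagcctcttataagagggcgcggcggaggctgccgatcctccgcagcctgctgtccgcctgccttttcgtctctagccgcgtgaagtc
Map1b and Tubb3 each held 2 GC boxes and Uchl1 held 0, while 35.7% of the 32851 promoters of this length held at least 1. GC content was 65.7% for Map1b, 67.3% for Tubb3 and 50.7% for Uchl1. Map1b also held a TATAAA, as did 13.6% of all promoters. The letters TGANTCA (AP-1), CATTCC (TEAD), TGACGT (part of a CRE), CACCTG (an E-box) and ACAAAG (SOX) were in none of the 3 windows, and in 7.81%, 14.7%, 7.51%, 20.2% and 18.7% of all promoters. All letters were searched on both strands.

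Stmn2 changed the other way. It encodes the neuronal stathmin SCG10 and lies at chr3:8509360-8561606 on the plus strand. Its level was low, 4.06 to 16.5 CPM (median 7.51) in delayed and 1.76 to 6.23 CPM (median 4.60) in immediate stumps. The groups overlapped, with 6 of 9 delayed libraries above the highest immediate one. The log2 fold change was 1.17 (SE 0.31, edgeR adjusted p = 0.00958), and the adjusted p stayed between 0.00538 and 0.0242 when each library was left out in turn. The values rest on 15 to 85 counts per library, and 5 CPM was met in 8 of 9 delayed and 3 of 7 immediate stumps. Stmn2 thus entered the test through the group in which it was higher.

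Gap43 and Tubb3 depended on 1 delayed animal. Gap43, at chr16:42248442-42340651 on the minus strand, was at 5.00 to 34.0 CPM (median 6.81) in delayed and at 5.04 to 10.5 CPM (median 9.41) in immediate stumps. The highest value belongs to delayed replicate 7. The log2 fold change of Gap43 was 0.44 (SE 0.37, edgeR adjusted p = 0.407) and became -0.01 without that animal. Tubb3, at chr8:123411424-123422015 on the plus strand, ranged from 2.56 to 66.1 CPM (median 10.3) after delayed and from 12.2 to 79.3 CPM (median 32.9) after immediate repair. Its highest delayed value came from the same animal. With all libraries the log2 fold change of Tubb3 was -1.14 (SE 0.53, edgeR adjusted p = 0.125), and without replicate 7 it was -1.73 with an adjusted p of 0.00965.

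Dpysl3, at chr18:43320984-43438286 on the minus strand, was the steadiest of the 8 tested genes, with 73.3 to 128 CPM (median 105) in delayed and 99.8 to 144 CPM (median 130) in immediate stumps. The ranges overlapped over most of their width, and the log2 fold change was -0.23 (SE 0.12, edgeR adjusted p = 0.155). Nefl and Nefm were near the limit of detection. Nefl, at chr14:68083863-68089095 on the plus strand, reached 1.10 CPM at most and was at 0 in 6 of 9 delayed and 3 of 7 immediate stumps. Nefm, at chr14:68082590-68124846 on the minus strand, reached 0.582 CPM at most and was at 0 in 3 and 2 of them. The exons of these 2 genes overlap by 1108 bases on opposite strands.

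**Figure D1:**
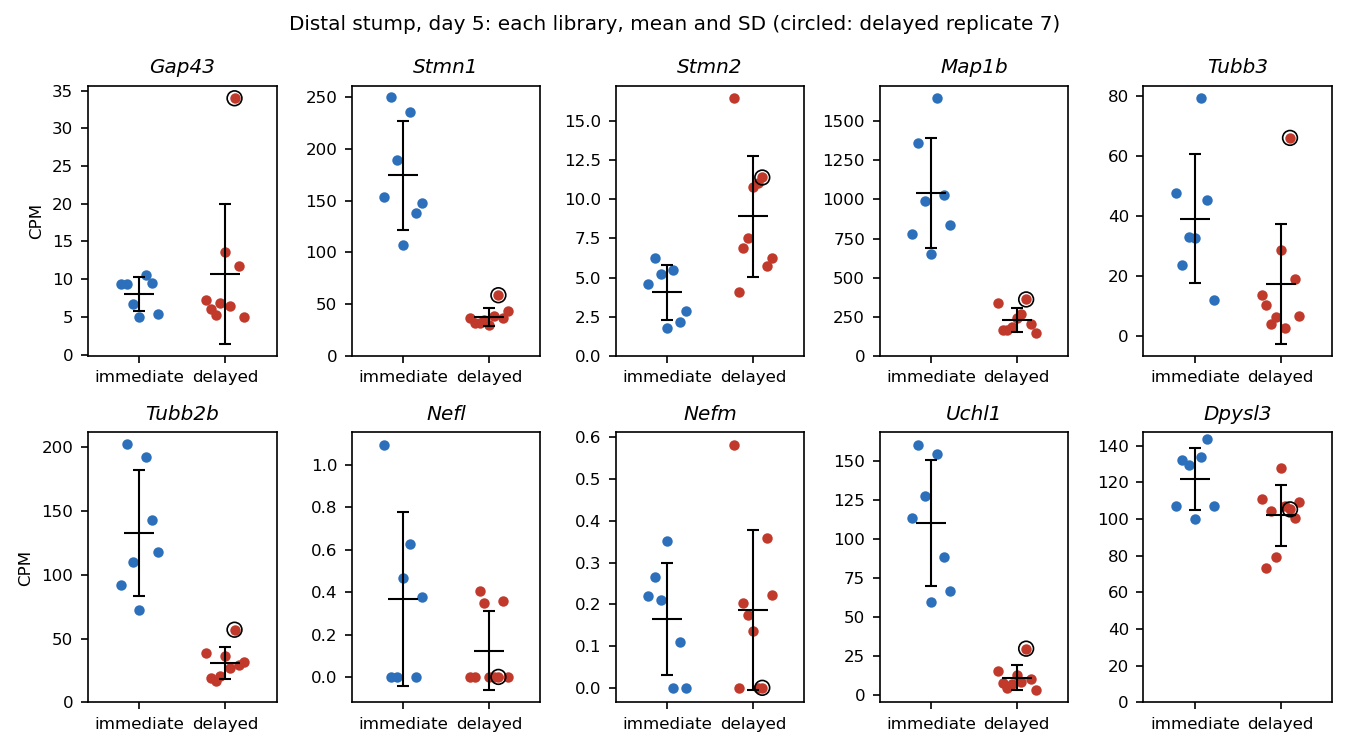
Level in CPM of each gene in each distal stump library at day 5, with immediate and delayed repair side by side; points are animals and bars the mean with the SD (n = 7 immediate, 9 delayed). Stmn1, Map1b, Tubb2b and Uchl1 separate without overlap, and the circled delayed replicate 7 carries the highest delayed Gap43 (34.0 CPM) and Tubb3 (66.1 CPM).

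Divided by exonic length, the order of the mean levels changed with the repair. In immediate stumps Stmn1 led with 90.8 CPM per kb, followed by Uchl1 with 67.6, Map1b with 65.8 and Tubb2b with 57.8 CPM per kb. In delayed stumps Stmn1 again led, at 19.8 CPM per kb, but Dpysl3 came next with 15.4, then Map1b with 14.6 CPM per kb. Uchl1 stood at 6.67 CPM per kb there, below Gap43 at 7.01 CPM per kb. The neighbours named in these orders differed by less than the SD of at least 1 of them. An interaction of repair with sex passed for 0 of the 8 tested genes with edgeR and with DESeq2, and 0 had an unadjusted p under 0.05. The largest fitted interaction was that of Tubb3, 1.10 on the log2 scale (SE 1.02, edgeR adjusted p = 0.9999). Across all 12229 genes 0 passed that test, and 272 had an unadjusted p under 0.05.

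Cell type markers moved in the same libraries, in which 13.5% of all genes tested were lower and 12.8% higher. The 10 Schwann cell markers summed to 106 to 845 CPM (median 288) in delayed stumps and to 1360 to 3257 CPM (median 2472) in immediate stumps. Of the 9 that were tested, 8 were lower, among them S100b with a log2 fold change of -4.86. Sox10 was at 7.12 to 60.6 CPM in delayed and 59.6 to 143 CPM in immediate stumps. The 12 macrophage markers summed to 4186 to 7128 CPM in delayed and 1789 to 6739 CPM in immediate stumps. Of 8 endothelial markers 7 were higher after delayed repair, as were 3 of 12 macrophage, 4 of 10 tested dendritic cell and 2 of 2 tested T cell markers. Of 6 tested mural cell markers 3 were higher and 1 was lower, and of 8 fibroblast markers 0 passed. The 14 neuronal markers summed to 18.02 to 46.1 CPM and 21.3 to 76.7 CPM, and Snap25, a synaptic protein gene, was at 0 in 7 of 9 delayed and 6 of 7 immediate stumps. Of 3 tested neuronal markers 1 was lower, Celf4 at -0.74 (SE 0.24, edgeR adjusted p = 0.0301). Snhg11 (-0.65) and Syn1 (0.17) did not pass. Of 17 cell cycle genes 14 were lower, led by Rrm2, Cdc20 and Ccnb1 with log2 fold changes of -1.23, -1.04 and -1.16. The part of these cell types and of the cell cycle in the levels of the 10 genes was not tested.

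Relatives of the 10 genes were examined by family in the same comparison, in which 13.5% of all genes tested were lower and 12.8% higher. Of 10 tested tubulin genes 9 were lower and 0 higher, with Tubb4a at -1.35 (SE 0.24), Tuba1b at -0.55 (SE 0.11) and Tubg1, the gamma tubulin of the centrosome, at -0.76 (SE 0.15) on the log2 scale. Of 9 tested microtubule-associated and stathmin genes 7 were lower, and Dclk1, Map6 and Map2 fell by 1.05, 1.53 and 1.36. Of 3 tested intermediate filament genes 2 were lower, namely Vim, the filament of mesenchymal and Schwann cells, at -1.28 and Nes, a filament of precursor cells, at -1.93. The median log2 fold change was -0.71 over the tubulins and -0.63 over the microtubule-associated genes, beside 0.02 over all genes.

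Of 6 tested membrane genes of growing axons, Cadm1 (-0.82) and L1cam (-0.92), both adhesion molecules, were lower and Marcks (0.29) was higher. The median of these 6 was 0.05. Neither Dpysl2, the only tested relative of Dpysl3, at -0.04 (SE 0.07), nor any of 3 tested relatives of Uchl1 passed the test. Of 9 tested genes of the neuronal injury response 4 were lower, among them Gadd45a at -2.83, Flrt3 at -2.54 and Atf3, a stress-induced transcription factor, at -1.86, and 1 was higher. Of 8 genes of axonal kinesins, a light chain included, 4 were lower, with Kif1a at -2.90, Kif3c at -1.80 and Kif3a at -0.63. Of 9 tested repair Schwann cell genes 1, Bdnf, was higher at 0.72 and 6 were lower, with Shh at -5.91, Ngfr at -2.92 and Sox2 at -2.43. The same shares, 13.5% lower and 12.8% higher over all genes, stand beside these counts. Some of these genes are also expressed by Schwann cells, and Ngfr is on the Schwann cell marker list.

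Within the groups, some of the genes varied together and others less so. After the group means were subtracted, r of log2(CPM + 1) over the 16 stump libraries was 0.85 for Map1b with Uchl1, 0.85 for Gap43 with Tubb3 and 0.84 for Map1b with Tubb2b. It was 0.23 for Stmn2 with Tubb3 and 0.28 for Dpysl3 with Tubb3. Among all 12229 genes, those most like Gap43 were Pllp (r = 0.89), a myelin membrane gene, S100b (0.85) and Tubb3 (0.85). Those most like Tubb3 were Gulp1 (0.85), Gap43 (0.85) and S100b (0.85). Stmn1 ran closest to Nucks1 (0.94), Racgap1 (0.93), a cytokinesis gene, and Anp32e (0.92). Stmn2 ran closest to Dhh (0.91), the hedgehog ligand of Schwann cells, to Mapk8ip1 (0.90) and to Cd200 (0.90). For Map1b they were Dync1li2 (0.96), Emp2 (0.95) and Sptan1 (0.94), for Tubb2b Cyb5r3 (0.94), Hspa2 (0.92) and Cd9 (0.92), for Uchl1 Mmp17 (0.95), Gadd45a (0.95) and Hmga2 (0.94), and for Dpysl3 Tmco3 (0.86), Ltbp1 (0.86) and Plat (0.84). These r values are a description of 16 libraries that share their depth and tissue composition across genes.

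In sorted macrophages only Stmn1 reached the minimum level for the test. Its range was 26.1 to 60.0 CPM (median 38.5) in delayed and 28.3 to 73.8 CPM (median 48.5) in immediate libraries at day 5. At day 14 it was 19.1 to 52.6 CPM (median 45.2) and 23.9 to 84.4 CPM (median 32.2). The ranges overlapped at both days, and the log2 fold changes of delayed over immediate repair were -0.35 (SE 0.22, edgeR adjusted p = 0.975) and -0.03 (SE 0.26, adjusted p = 0.9999). Called genes made up 0.0357% of all genes tested at day 5 and 0% at day 14. The interaction of repair with day was 0.32 for Stmn1 (SE 0.36, edgeR adjusted p = 0.9999), and 0.0223% of all genes passed that test. Between days Stmn1 did not pass the test either, with -0.39 (SE 0.27, edgeR adjusted p = 0.380) after immediate and -0.08 (SE 0.21, adjusted p = 0.867) after delayed repair, where 11.3% and 6.41% of all genes passed.

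The other 9 genes were low or undetected in macrophages. Map1b was at 0.277 to 6.24 CPM and Dpysl3 at 0.0430 to 4.40 CPM over the 32 libraries. Uchl1 reached 1.82, Tubb3 0.753, Tubb2b 1.02 and Gap43 1.13 CPM at most, each with libraries at 0. Gap43 was at 0 in 14 of 17 libraries of day 5 and in 6 of 15 of day 14, and all 8 immediate libraries of day 14 had at least 1 count. Stmn2 was found in 1 of 32 macrophage libraries, and Nefl and Nefm in 0 of 32.

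The GFP-sorted libraries carried 7 of the 10 genes at testable levels. By mean CPM per kb over all 31 libraries Stmn1 was highest at 64.1, then Gap43 at 17.1, Uchl1 at 13.4, Tubb2b at 7.46, Tubb3 at 4.00, Map1b at 3.92 and Dpysl3 at 2.91 CPM per kb. The place of Gap43 differed between groups: its mean was 49.0 and 10.4 CPM per kb in immediate and delayed libraries of day 14, where only Stmn1 was higher, but 1.37 and 6.32 CPM per kb at day 5, where 6 and 3 of the other genes were higher. Tubb3 ranked 5 and 4 among the 10 genes in delayed and immediate libraries of day 5, but 7 in both groups of day 14, below Map1b and Dpysl3. Stmn2 was at 0 in 16 of 31 libraries and reached 11.9 CPM. Nefl had counts in 1 library (4.65 CPM) and Nefm in 5 (up to 1.93 CPM). Snap25 was at 0 in every one of the 31. Tubb2b varied least, at 3.61 to 29.8 CPM, with a coefficient of variation of 0.333 over the libraries. That of Gap43 was 1.70.

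**Figure D2:**
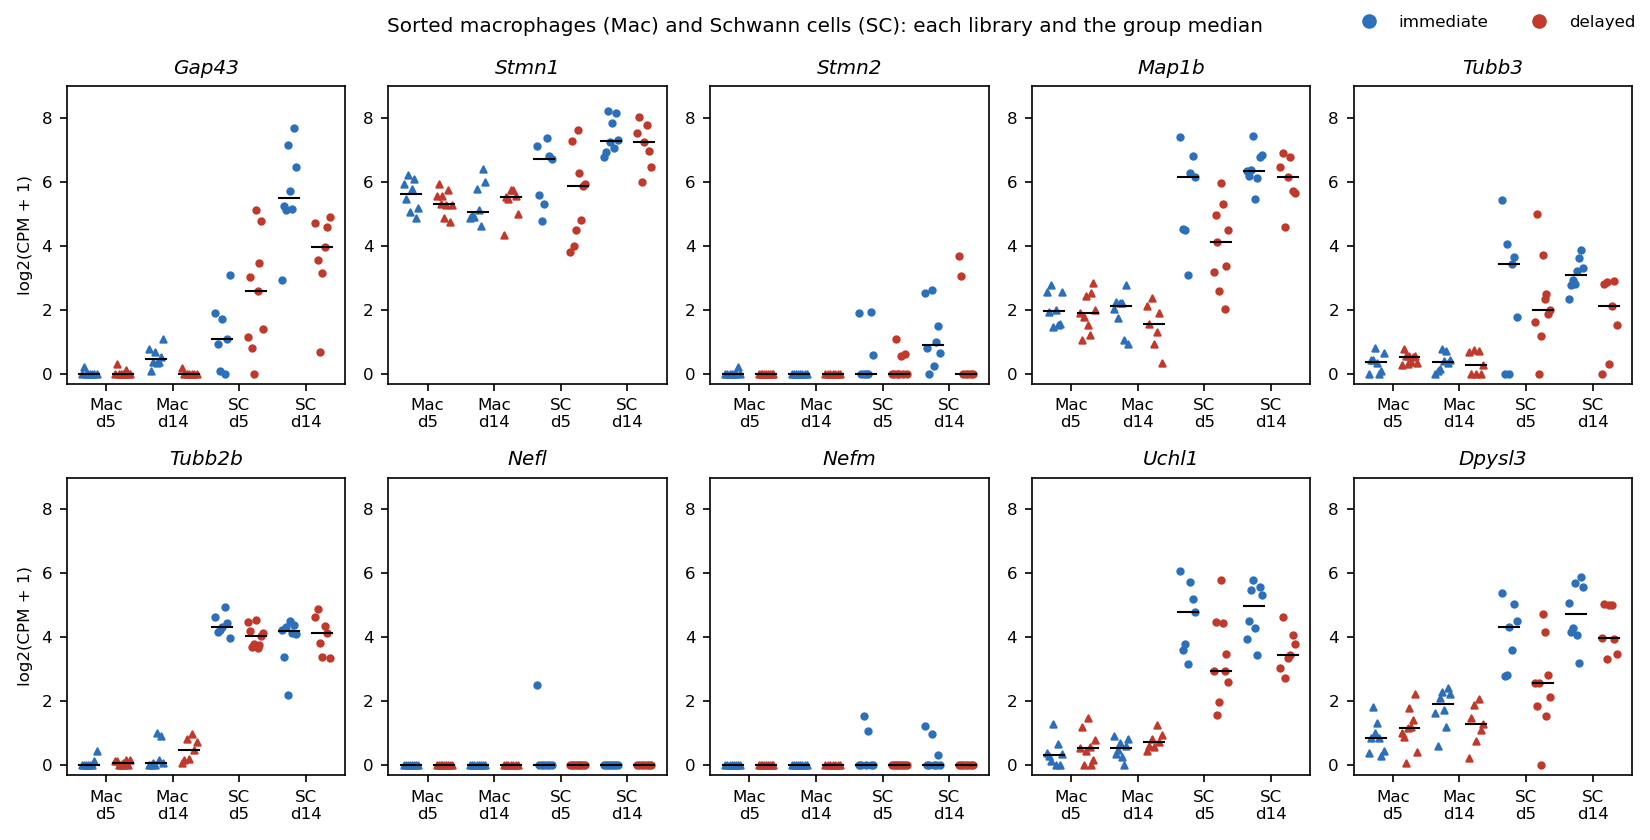
Level of each gene as log2(CPM + 1) in every sorted library, by cell type, day and repair group; points are libraries and bars group medians. In macrophages Stmn1 is highest, with Map1b and Dpysl3 low but detected in every library, and Gap43 is highest in the immediate GFP-sorted libraries of day 14 (6.60 to 204 CPM).

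Gap43 in the GFP-sorted libraries had the widest range over time. After immediate repair it was at 0 to 7.52 CPM (median 1.15) at day 5 and at 6.60 to 204 CPM (median 44.3) at day 14. Only the lowest day 14 library lay below the highest day 5 library. The log2 fold change of day 14 over day 5 was 5.03 (SE 0.94, edgeR adjusted p = 0.00921), a 32.6-fold rise, and DESeq2 gave an adjusted p of 3.64e-08. With limma-voom sample quality weights the estimate was 4.74 with an adjusted p of 0.336. It was the one gene called among the 7 tested, where 3.81% of all genes were called and 0.719% were higher. Gap43 met the minimum of 5 CPM in 1 of 7 libraries of day 5 and in 8 of 8 of day 14, so it entered the test through the day in which it was higher and nothing is read from its share. After delayed repair Gap43 was at 0 to 34.2 CPM (median 5.01) at day 5 and 0.601 to 28.7 CPM (median 14.7) at day 14, a log2 fold change of 0.62 (SE 0.90, edgeR adjusted p = 0.699), or -0.16 without the 4 libraries low in Sox10.

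Between repair groups Gap43 in the GFP-sorted libraries had a log2 fold change of 2.18 at day 5 (SE 1.17, edgeR adjusted p = 0.913; 2.95 without the 4 libraries). At day 14 the log2 fold change was -2.25 (SE 0.67, adjusted p = 0.998, unadjusted p = 0.00370). Levels overlapped between repair groups at both days. The interaction of repair with day was -4.41 (SE 1.33, edgeR adjusted p = 0.730, unadjusted p = 0.00230). It was thus not called. Without the 4 libraries it was -5.18 with an adjusted p of 0.165. For the other genes the interaction was 0.06 for Stmn1, 1.27 for Map1b, -0.35 for Tubb3, 0.44 for Tubb2b, -0.28 for Uchl1 and 0.80 for Dpysl3, and -0.48, 0.93, -1.01, 0.53, -0.89 and 0.33 without the 4 libraries; 0 passed in either case. Over all 10923 genes tested for this interaction 0 were called, and 524 had an unadjusted p under 0.05. Without the 4 libraries 2 of all 10861 genes tested were called.

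Map1b was higher at day 14 than at day 5 in the delayed GFP-sorted libraries without passing the test. It was at 3.12 to 61.9 CPM (median 16.6) at day 5 and 23.1 to 119 CPM (median 69.7) at day 14, with a log2 fold change of 1.57 (SE 0.49, edgeR adjusted p = 0.0550). Adjusted p of Map1b was 0.0125 with DESeq2 and 0.0414 to 0.0455 with library size scaling, voom weights, the replicate block and the joint fit of 4 groups, and 0.311 without the 4 libraries, where the estimate was 1.22. The immediate libraries held 7.61 to 170 CPM (median 69.7) and 43.3 to 171 CPM (median 81.0), and the log2 fold change between their days was 0.30 (SE 0.46, adjusted p = 0.796). Of the 6 genes tested in the delayed group 0 were called, where 8.09% of all genes were called, and 1 of the 6 had an unadjusted p under 0.05; DESeq2 called 1. Without the 4 libraries 0 of the 6 were called and 47 of all 9727 genes tested, in place of 806 of 9961. The estimates were then 0.47 in place of 1.01 for Stmn1, 0.83 in place of 1.31 for Dpysl3, -1.01 in place of -0.38 for Uchl1 and -0.015 in place of -0.10 for Tubb2b.

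Between repair groups none of the 7 genes passed in the GFP-sorted libraries with edgeR or DESeq2, and at both days 0% of all genes tested did. Unadjusted p was under 0.05 for 505 of 9604 genes at day 5 and 373 of 10226 at day 14. Among the 7 genes these were Map1b at day 5 (log2 fold change -1.68, SE 0.61, unadjusted p = 0.0130) and, at day 14, Gap43 and Uchl1. Uchl1 was at 5.69 to 24.0 CPM (median 9.87) in delayed and 9.84 to 54.4 CPM (median 30.8) in immediate libraries of day 14, with a log2 fold change of -1.41 (SE 0.38, unadjusted p = 0.00190, edgeR adjusted p = 0.998). At day 5 it was at 1.98 to 54.2 CPM (median 6.67) and 8.07 to 67.1 CPM (median 26.8), with -1.13 (SE 0.60, edgeR adjusted p = 0.913). For the remaining genes the log2 fold changes were -0.42 for Stmn1, -0.39 for Tubb2b, -0.88 for Tubb3 and -1.43 for Dpysl3 at day 5, and -0.36, 0.05, -1.23 and -0.64 at day 14. Without the 4 libraries low in Sox10 the day 5 values were 0.12 for Stmn1, -1.32 for Map1b, -0.21 for Tubb3, -0.47 for Tubb2b, -0.51 for Uchl1 and -0.96 for Dpysl3. Again 0 genes of the 7 passed, where 1 of all 9254 genes tested did.

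**Figure D3:**
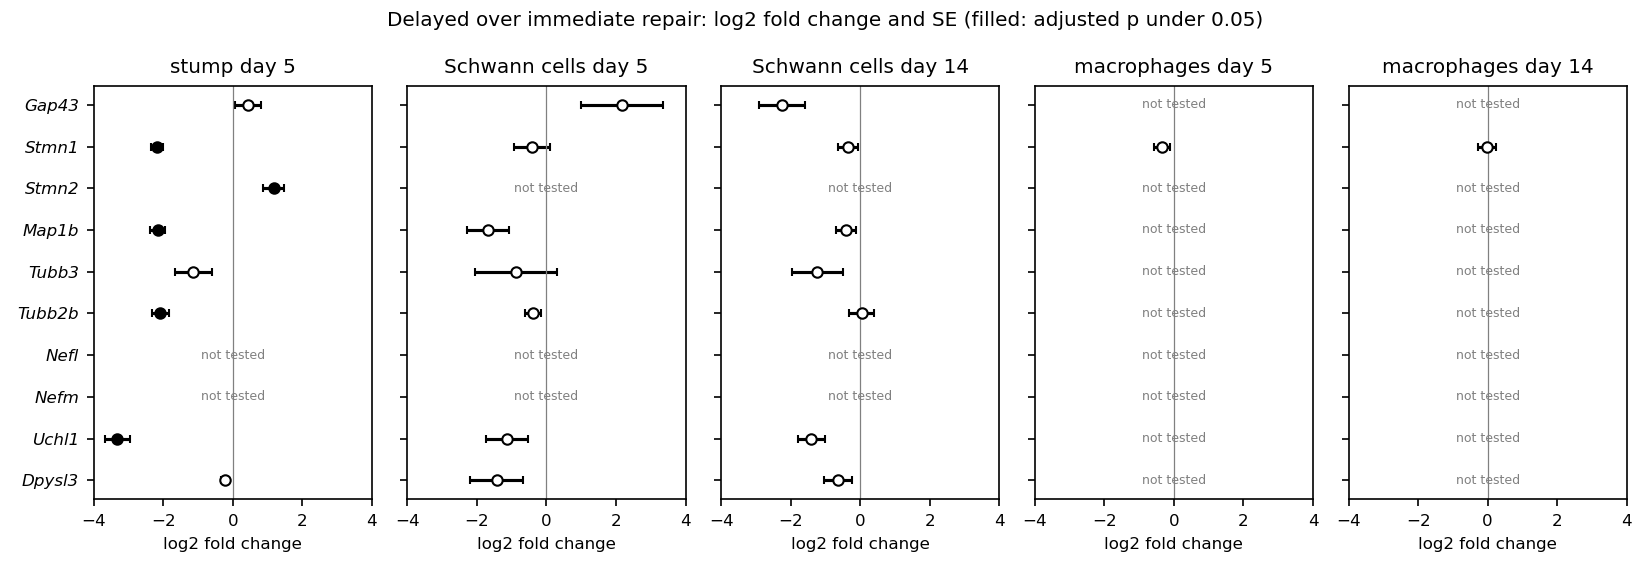
Log2 fold change of delayed over immediate repair with its SE for each tested gene, with panels for the day 5 stump and for both sorted cell types at days 5 and 14; filled points passed an adjusted p of 0.05. Filled points occur in the stump panel only, with Uchl1 at -3.32, Stmn1 at -2.17, Map1b at -2.16, Tubb2b at -2.08 and Stmn2 at 1.17.

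The effect of repair in the stump and in the GFP-sorted libraries was not tested against each other, since the libraries were prepared differently. Side by side at day 5, Uchl1 stood at -3.32 in the stump and -1.13 in the GFP-sorted libraries (-0.51 without the 4 libraries low in Sox10), and Stmn1 at -2.17 and -0.42 (0.12). Map1b stood at -2.16 and -1.68 (-1.32), and Tubb2b at -2.08 and -0.39 (-0.47). Of the 16 animals with a stump library, 15 also gave a GFP-sorted library, so the values come largely from the same animals.

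Levels in the GFP-sorted libraries followed the content of Schwann cell markers for some of the genes. Schwann cell marker content was scored as the mean log2(CPM + 1) of the 10 markers, and 16 relations with this score and a dendritic cell score were computed over the 31 libraries. Map1b had r = 0.87 (rho = 0.87, permutation p = 1e-05, the smallest possible; adjusted 5.33e-05), with 0.83 within day 5 and 0.70 within day 14. Stmn1 had r = 0.85 (rho = 0.74), with 0.83 and 0.45 within days, and Dpysl3 r = 0.82 (rho = 0.77), with 0.82 and 0.53. Leaving out the 2 libraries with scores farthest from the median gave 0.86, 0.86 and 0.74 for these 3 genes. Within day 5 without the 4 libraries low in Sox10 (n = 12), r was 0.87, 0.83 and 0.70 for Map1b, Stmn1 and Dpysl3. These libraries also held fibroblast markers, 8 genes with median sums of 603 CPM in delayed and 1591 CPM in immediate libraries of day 5. At day 14 the medians were 5080 and 7117 CPM. Relations of the 10 genes with fibroblast or macrophage markers were not tested.

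The relation with the Schwann cell score was weaker or limited to 1 day for the others. Uchl1 had r = 0.59 (rho = 0.48, permutation p = 0.000530; adjusted 0.00212; 0.48 without 2 libraries), with 0.92 within day 5 and 0.004 within day 14. Gap43 had r = 0.56 (rho = 0.52, permutation p = 0.000970; adjusted 0.00310; 0.49 without 2 libraries), but 0.31 and 0.13 within days, so the pooled value did not hold within either day. Stmn2 had r = 0.51 (rho = 0.52, permutation p = 0.00392; adjusted 0.00896), with 0.51 and 0.50 within days 5 and 14. Tubb3 (r = 0.29, permutation p = 0.111) and Tubb2b (r = 0.09, permutation p = 0.629) did not pass over all libraries. Within days 5 and 14 they had r = 0.63 and -0.42 for Tubb3 and 0.52 and 0.17 for Tubb2b. With the dendritic cell score only Stmn2 passed after adjustment (r = -0.54, rho = -0.32, permutation p = 0.00162; adjusted 0.00432), with -0.15 within day 5, -0.67 within day 14 and -0.40 without 2 libraries, and its rho had an adjusted p of 0.150. Without the 4 libraries low in Sox10, r with the Schwann cell score within day 5 was 0.89 for Uchl1, 0.65 for Stmn2, 0.57 for Tubb3, 0.53 for Tubb2b and -0.05 for Gap43.

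**Figure D4:**
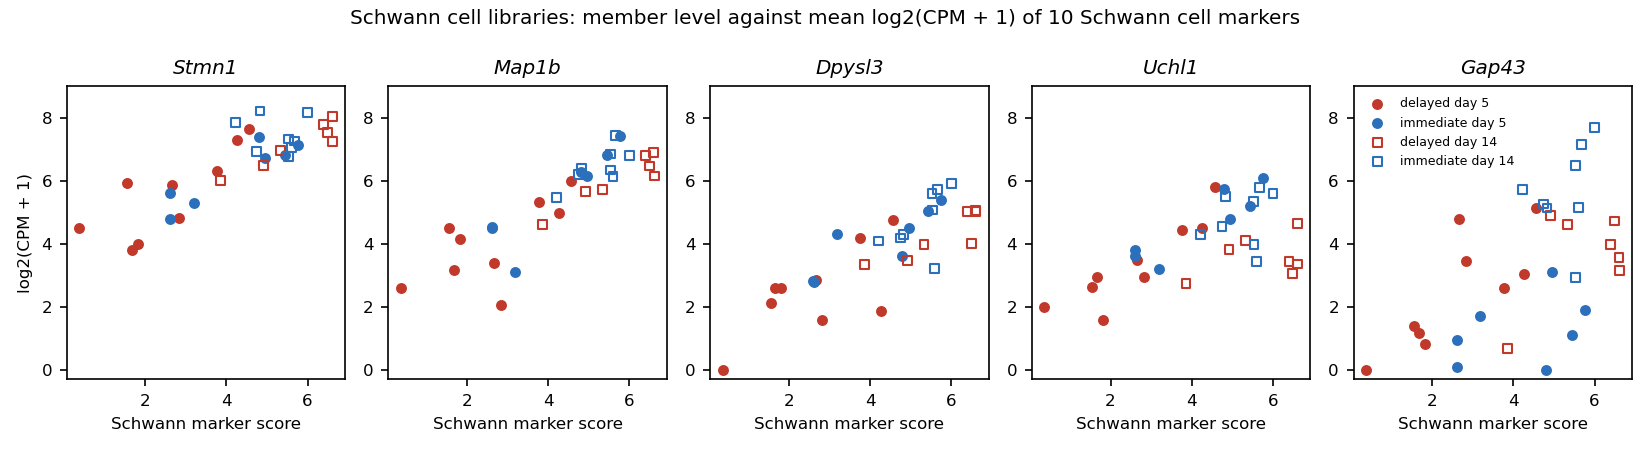
Levels of Stmn1, Map1b, Dpysl3, Uchl1 and Gap43 as log2(CPM + 1) against the Schwann cell marker score in the 31 GFP-sorted libraries. The score is the mean log2(CPM + 1) of 10 markers, and repair group and day are marked. Map1b (r = 0.87), Stmn1 (r = 0.85) and Dpysl3 (r = 0.82) rise with the score over all libraries. Uchl1 has r = 0.59 over all, 0.92 within day 5 and 0.004 within day 14.

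Between cell types, compared without pairing by animal, the GFP-sorted libraries held more of nearly all testable genes than the macrophages. At day 5, 6 of 7 tested genes were higher (edgeR), where 65.3% of all genes differed and 35.9% were higher. At day 14 it was 7 of 7, where 64.8% differed and 37.4% were higher. All of these except Stmn1 reached the minimum of 5 CPM through the GFP-sorted libraries, so a difference was built into their selection and their number is no support. Stmn1 passed the minimum in both cell types. At day 5 it was at 13.0 to 197 CPM (median 58.7) against 26.1 to 73.8 CPM (median 43.0) in macrophages, a log2 fold change of 0.43 (SE 0.28, edgeR adjusted p = 0.179), or 0.70 with an adjusted p of 0.0140 without the 4 libraries and 0.79 with an adjusted p of 0.0207 with library size scaling. At day 14 it was at 62.5 to 294 CPM (median 152) against 19.1 to 84.4 CPM (median 43.2), a log2 fold change of 1.66 (SE 0.21, adjusted p = 2.15e-08).

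The ranges of the other genes in the 2 cell types were far apart for some. Tubb2b was at 11.6 to 29.8 CPM in GFP-sorted libraries and at most 0.371 CPM in macrophages at day 5. Uchl1 had 1.98 to 67.1 CPM against 0 to 1.82 CPM at day 5 and 5.69 to 54.4 CPM against 0 to 1.40 CPM at day 14. These 2 genes did not overlap between cell types at day 5, where 14.9% of all genes did not, and Tubb2b, Uchl1, Map1b and Dpysl3 did not overlap at day 14, where 17% of all genes did not. The selection through the GFP-sorted libraries favours such gaps, so nothing is read from these counts. Map1b differed by 3.38 (SE 0.43) and 4.59 (SE 0.32) on the log2 scale at days 5 and 14, and Dpysl3 by 3.13 (SE 0.54) and 3.20 (SE 0.36). Library size scaling in place of TMM shifted the median of all genes to 0.31 at day 5 and 0.49 at day 14, from 0.06 and 0.12.

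In the GFP-sorted libraries no gene of the related families passed the test between repair groups, as no gene at all did with all libraries included. At day 5, with the 4 libraries low in Sox10 included, 0 of 9 tested tubulins, 0 of 6 microtubule-associated genes, 0 of 6 membrane genes and 0 of 10 injury response genes passed. The median log2 fold change was -0.60 over the 6 microtubule-associated genes, 0.07 over the 9 tubulins and -1.71 over 5 repair Schwann cell genes at day 5, and 0.06, -0.12 and 0.20 at day 14. Single values at day 5 were as large as -2.37 for Dclk1 (SE 0.83, edgeR adjusted p = 0.818) and -2.51 for Nes (SE 0.91, adjusted p = 0.818). Schwann cell markers in these libraries summed to 80 to 883 CPM at day 5 and 374 to 1097 CPM at day 14 after immediate repair, and to 4.34 to 390 CPM and 277 to 2224 CPM after delayed repair. The part of Schwann cells in the levels of Gap43 and Map1b over time was not tested beyond the within-day values above.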

How the data were processed

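The members and the gene lists were chosen with earlier results of these data known. RNA was measured in sorted macrophages, GFP-sorted cells and distal stumps. Per the labels and the study's methods, the authors trimmed single-end 85-base reads with cutadapt 1.8, aligned them with TopHat2 2.1.1 to mm10 with UCSC genes and used Cufflinks 2.2.1; the program that wrote the tables is not given in the sources used here. The deposited values are estimated counts per gene, neither normalized nor filtered. Between 0.951% and 1.18% of the values were not whole and were rounded. Sorted-cell libraries came from an unstranded cDNA kit, so reads of overlapping antisense genes cannot be told apart there.

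A gene entered a comparison if 6 or more of its libraries had 5 CPM or more. Tests were made with edgeR 4.0.16 (TMM scaling, quasi-likelihood test, R 4.3.3), without covariates, and p-values were adjusted over all genes tested by the Benjamini-Hochberg method at 0.05. Interactions were fitted over all libraries of a kind. The study used cuffdiff, which needs aligned reads. Printed levels are CPM on library totals, and the CPM that 3 counts stand for was used as a limit of detection. Scores are means of log2(CPM + 1), and their correlations were tested with 100000 permutations. Alternatives were DESeq2 1.42.0, library size scaling, limma 3.58.1 voom weights, filterByExpr, no filter, sex as a covariate, a replicate block, a joint fit of the 4 groups of a sorted cell type, each library left out in turn (only for delayed against immediate repair), and, chosen after seeing the data, leaving out 4 libraries below 5 CPM of Sox10.

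Macrophage and GFP-sorted libraries of 31 animals are paired by animal in the labels; deviations of such pairs from their group means correlated at 0.00400 to 0.274 at day 5 (16 pairs) and 0.0559 to 0.238 at day 14 (15 pairs). Genes named are the 10 members, up to 3 called genes of each related list with the smallest p, the 3 genes most like each member in the stump, and marker genes where a list level is given; Dpysl2, Tubb2a and Bdnf were named after their values were seen. Tests were checked on simulated data. Positions are from the annotation of GRCm38.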

Additional observations from a re-analysis of the deposited data

Results flagged for a closer look

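Of 67 groups of 4 to 10 libraries with detected levels of one of the 10 genes, 9 held a library far from the others by Dixon's test. The usual rate of 1 in 20 groups assumes normally distributed values and independent groups. CPM was not transformed and the same libraries recur across genes, so the count of 9 is not read against that rate. In the stump, delayed replicate 7 was the highest of its group for Gap43 (34.0 CPM), Stmn1 (58.7 CPM), Tubb3 (66.1 CPM) and Uchl1 (29.6 CPM). It also held the highest Sox10 of the delayed stumps, 60.6 CPM. In the GFP-sorted libraries of day 5, Gap43 was far from the rest in immediate replicate 8 (7.52 CPM), Tubb3 in delayed replicate 2 (31.0 CPM) and in immediate replicate 1 (42.1 CPM), and Uchl1 in delayed replicate 5 (54.2 CPM). In macrophages of day 5, Uchl1 was far from the rest in immediate replicate 4, at 1.47 CPM, which is a low count.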

How the results depend on the processing

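In the stump, the calls of Stmn1, Map1b, Tubb2b, Uchl1 and Stmn2 held in every alternative, and the number of called members was 5 to 7. Leaving out each stump library gave 5 to 6 calls, with Gap43 between -0.013 and 0.53; the negative value came without delayed replicate 7, whose omission also called Tubb3. With voom weights Tubb3 (-1.63, adjusted p = 0.0251) and Dpysl3 (-0.30, adjusted p = 0.0464) passed as well.

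In the GFP-sorted cells between days, voom weights left 0 calls after immediate repair in place of 1. After delayed repair the count of 0 became 1 (Map1b) with DESeq2, library size scaling, voom weights and all 4 groups in one fit, and 2 with the replicate block (Map1b, and Stmn1 at 1.73 with an adjusted p of 0.0465). In macrophages after immediate repair, testing without a filter gave 1 called member. Directions that turned belong to values that passed no test; the cause was not tested. With voom weights they were Stmn1 in macrophages of day 14 (0.20), Tubb3 in GFP-sorted cells of day 5 (1.64), Tubb3 and Uchl1 between days after immediate repair (2.64 and 0.10), Uchl1 after delayed repair (0.079) and the sex interaction of Map1b (0.12). With sex as a covariate Stmn1 in macrophages of day 14 was 0.012, and leaving out each library gave -0.12 to 0.16. With library size scaling Uchl1 between days after immediate repair was 0.030 and Tubb2b after delayed repair 0.12. Leaving out each library gave Tubb2b in GFP-sorted cells of day 14 between -0.093 and 0.22. Without the 4 libraries low in Sox10, Stmn1 at day 5 was 0.12, its interaction of repair with day -0.48, and Gap43 between days after delayed repair -0.16.

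With the replicate number as a block, Tubb3 and Uchl1 between days after immediate repair were 0.92 and 0.24, and Uchl1 after delayed repair was 0.35. The number of called stump members under the replicate block was 5. Across repair groups and days the numbers name different animals, and in no such comparison did every same-numbered pair correlate above 0.1. The stump pairs ran from -0.28 to 0.11 (1 of 7 above 0.1), macrophages of day 5 from -0.02 to 0.49 (7 of 8) and of day 14 from -0.03 to 0.50 (6 of 7), and GFP-sorted cells had 3 of 7 at each day. Blocking by animal changed no call between cell types. In the stump, Nefl and Nefm had at most 5 and 3 counts in a library. In the deeper GFP-sorted libraries the median count of Stmn2, Nefl and Nefm was 0, with single libraries up to 158, 141 and 55 counts.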
